A study of Mus musculus with 13 samples.

Results

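The genes described here encode the actin cytoskeleton of fibroblasts and the focal adhesions that tie it to the extracellular matrix. They were taken from a list of 49 genes, and each was followed through its GENCODE vM21 gene span (mm10) plus 10 kb on each side. All 49 were found among 21938 protein-coding genes, 48 by symbol and 1, Mkl1, by a RefSeq synonym, since the annotation calls it Mrtfa. Gene spans ran from 2349 bp (Rhob) to 599072 bp (Lpp), with a median of 31173 bp against 17425 bp for all protein-coding genes. The windows of Tpm2 and Tln1 overlapped each other, and no other pair did.

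Actin filaments are built from actin monomers, are stabilised by tropomyosins and calponins, are pulled by non-muscle and smooth muscle myosin, and are bundled by actinins, filamins and palladin. They end in focal adhesions, where talin, vinculin, paxillin, zyxin and integrin-linked kinase join them to integrins. SRF and its actin-regulated coactivator MRTF-A (Mkl1) switch on many of these genes through a motif called the CArG box, and TGF-β signaling through SMAD3 is known for raising the contractile genes in fibroblasts. MEFs lose much of this mesenchymal program when they are reprogrammed.

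ChIP-seq had been carried out on mouse embryonic fibroblasts (MEFs) of the TNG MKOS line, which carry a Nanog-GFP reporter and, under doxycycline (dox) control, the MKOS cassette, which encodes the Yamanaka factors (c-Myc, Klf4, Sox2 and Oct4). Every library, without dox too, came from cells infected with a retrovirus for Smad3CA, a constitutively active SMAD3, so no group showed endogenous SMAD3 alone. After 3 days in ESC medium with LIF, cells given dox at 1 µg/ml (Dox+) were used for OCT4 (n = 3) and SMAD3 (n = 3), cells without dox (Dox-) for SMAD3 (n = 3), and 2 inputs were made per condition, 13 samples in all. The embryos were of mixed sex and background, and no label says that replicates were separate cultures, so the spread between replicates may be technical. The files hold peaks and not read totals, so the depth of each library is unknown. Replicate 1 of SMAD3 stood apart by its short lists in both conditions (420 peaks in Dox+, 1656 in Dox-), whereas replicate 2 had the longest (23981 and 18588) and replicate 3 lay between (10374 and 4038). Binding alone was measured, so transcript levels of these genes and the markers of the cells are not analysed here.

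Merged SMAD3 peaks, as deposited, were found at most of these genes in both conditions. The merged Dox+ list, called on the pooled replicates, had a peak at 44 of 49 genes (89.8%), against 52.5% of all protein-coding genes. The merged Dox- list likewise had a peak at 44 of 49 (89.8%), against a background of 48.0%. All genes of the same span classes (10 classes of equal size) would give 27.5 and 25.2 of the 49. With peaks at a -log10 q-value of at least 2, the counts were 25 in Dox+ (51.0%, background 27.1%) and 22 in Dox- (44.9%, background 21.1%). With peaks that at least 2 replicate lists of the group overlapped, they were 40 in Dox+ (81.6%, background 43.8%) and 28 in Dox- (57.1%, background 23.7%). In total 42 genes had a peak in both conditions, Itgb3 and Mkl1 in the merged Dox+ list only, Myl9 and Mylk in the merged Dox- list only, and Acta2, Tpm3 and Itga11 in neither merged list. Itga11, the collagen-binding integrin alpha chain, had no peak in any list. Around the gene start, within 1 kb, a merged Dox+ peak was present at 37 genes (75.5%, background 39.3%) and a merged Dox- peak at 35 (71.4%, background 34.7%).

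**Figure D1:**
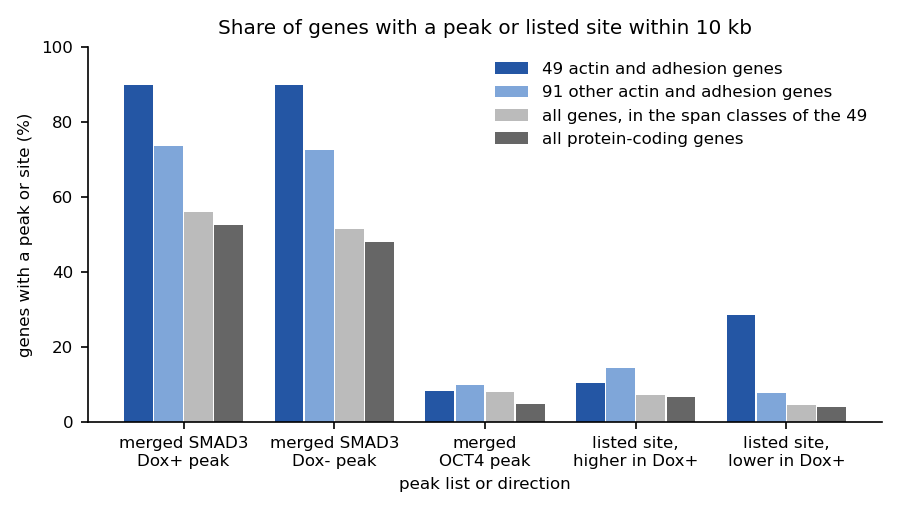
Percent of genes (vertical axis) with a merged peak or a listed site within the gene window, for the 49 genes, 91 other actin and adhesion genes, all genes averaged over the span classes of the 49, and all protein-coding genes. The 49 genes stood highest for both SMAD3 lists (89.8% each) and for sites lower in Dox+ (28.6%), and sat near the other bars for OCT4 (8.16%).

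Single replicates gave very different coverage. In Dox+, peaks were at 2 of 49 genes in replicate 1 (Actb and Tagln2), at 48 in replicate 2 and at 43 in replicate 3. In Dox-, the corresponding counts were 11, 46 and 29. The counts rose with the number of peaks in the list, and all genes did the same, from 2.57% to 63.0% in Dox+ and from 10.8% to 56.3% in Dox-. At least 2 Dox+ lists had a peak at 43 genes (87.8%, background 46.5%), and at least 2 Dox- lists at 30 genes (61.2%, background 24.8%). Both counts rest on replicates 2 and 3, and without either of them they were 2 in Dox+ and 10 or 11 in Dox-. The share of all genes was not computed for these smaller counts. As a share of each list, peaks at these genes made up 0.476%, 0.805% and 0.819% of the Dox+ lists (mean 0.700% ± 0.194, SD, n = 3) and 0.785%, 0.855% and 1.02% of the Dox- lists (mean 0.885% ± 0.118, SD, n = 3), while the windows covered 0.181% of the genome. The log2 ratio of Dox+ over Dox- was -0.29, but the ranges overlapped. The ratio was 0.38 with peaks at a -log10 q-value of at least 2 and 0.084 with all lists cut to the 420 peaks of lowest q-value.

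**Figure D2:**
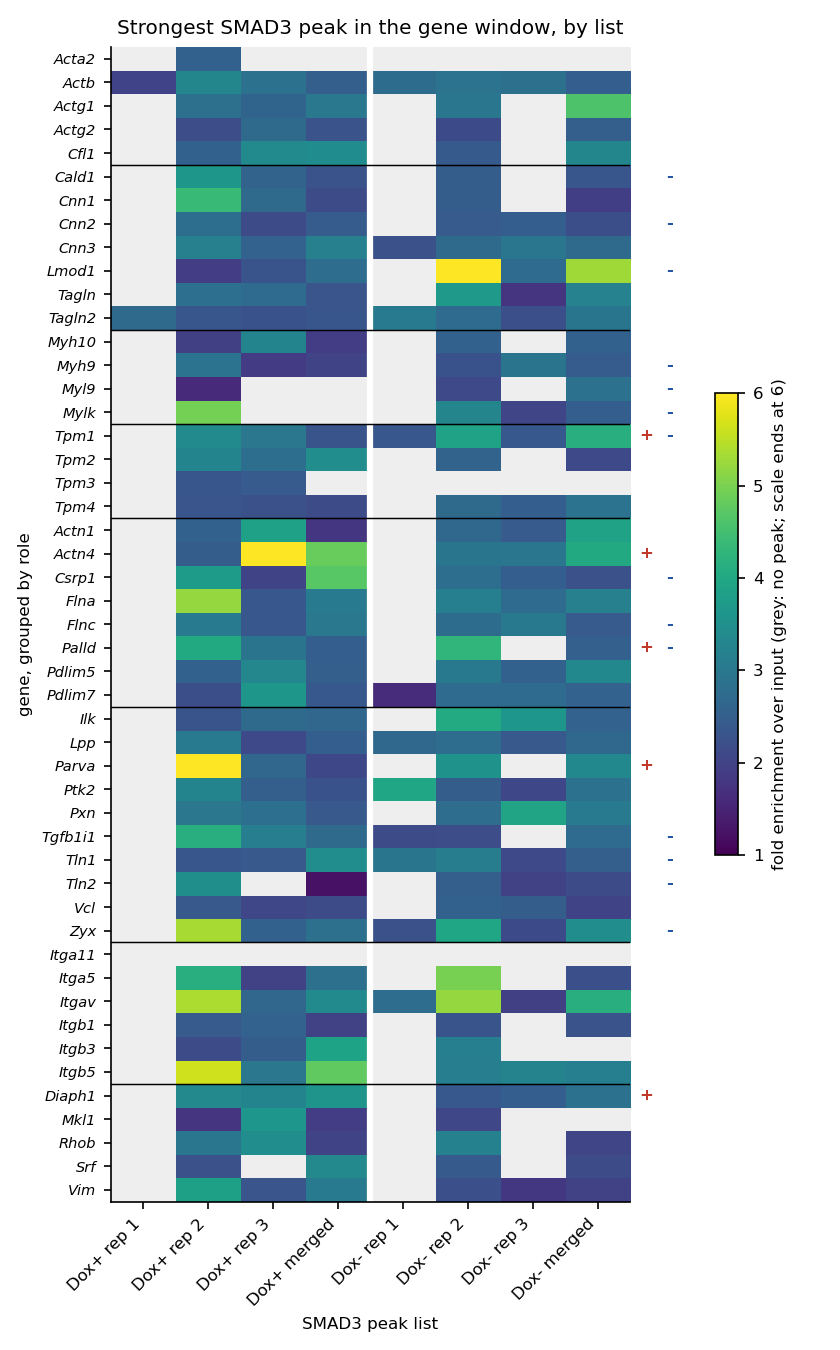
Fold enrichment over input (color, with values above 6 shown as 6) of the strongest SMAD3 peak at each gene (rows, grouped by role) in each peak list (columns), grey where no peak was called. A red plus marks genes with a site higher in Dox+ and a blue minus genes with a site lower in Dox+. Replicate 1 was nearly empty in Dox+ (2 genes) and sparse in Dox- (11 genes), and the strongest peaks of a gene differed between replicates.

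Actins and cofilin formed the first group. Actb and Actg1, the cytoplasmic actins, had merged peaks in both conditions, 5 and 4 in Dox+ and 3 each in Dox-. Actb was the only actin with a peak in all 6 replicate lists, at a fold of 2.01, 3.30 and 2.87 in Dox+ and 2.77, 2.91 and 2.84 in Dox-. Its replicates overlapped between conditions. Acta2, smooth muscle alpha-actin, was bound in Dox+ replicate 2 only (fold 2.55). Actg1 had one of the strongest merged peaks in Dox- (fold 4.59, 1456 bp from its nearest start). None of this group's 5 genes had a listed change.

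Transgelins, calponins and caldesmon bind along the filament and temper contraction. The leiomodin gene Lmod1 was placed in the same group, and all 7 genes had merged peaks in both conditions. Tagln, encoding transgelin (SM22), had a peak on its start at chr9:45935739-45936135 in Dox- (fold 3.21) and at chr9:45935832-45936038 in Dox+ (fold 2.21), the latter beside 2 further Dox+ peaks. Over the replicates its strongest fold was 2.82 and 2.74 in Dox+ replicates 2 and 3, with no peak in replicate 1, and 3.69 and 1.77 in the same Dox- replicates, again with none in replicate 1. The Dox+ values lay between the Dox- values. Cnn1, the smooth muscle calponin, had 1 peak per condition, 12511 bp (Dox+) and 12612 bp (Dox-) from its nearest start and on the start of the neighbor Elof1. Peaks at Cnn1 gave a fold of 4.39 and 2.74 in Dox+ replicates 2 and 3 and 2.47 in Dox- replicate 2, with none in the other lists.

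The upstream regulators Srf and Mkl1 were bound at their own promoters. Srf had a merged peak on its start in Dox+ (chr17:46555999-46556760, fold 3.36) and in Dox- (chr17:46555708-46556183, fold 2.11), but only replicate 2 gave a peak there in each condition (strongest fold at the gene 2.25 and 2.41). Mkl1 had a merged Dox+ peak on its start (chr15:81190532-81191219, fold 1.92) and none in Dox-. The replicates were less clear, since Mkl1 gave a fold of 1.76 and 3.64 in Dox+ replicates 2 and 3 and 2.05 in Dox- replicate 2.

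The 5 genes with the strongest merged peaks in each condition had Actn4 in common. In Dox+ they were at Actn4 (fold 4.84), Itgb5 (4.78), Csrp1 (4.70), Itgb3 (3.90) and Diaph1 (3.58), encoding an actinin, a pair of integrin beta chains, a LIM protein of the filament and a formin. In Dox- they were at Lmod1 (fold 5.28), Actg1 (4.59), Itgav (4.15), Tpm1 (4.15) and Actn4 (4.03), encoding a leiomodin that seeds filaments, an actin, the alpha-V integrin, a tropomyosin and again the actinin. The peak behind several of these values was small and was found in 1 replicate list, as at Actn4 in Dox+ (361 bp, 11454 bp from its nearest start), at Csrp1 (187 bp) and at Itgav (186 bp). Over the 42 genes with merged peaks in both conditions the median strongest fold was 2.50 in Dox+ and 2.62 in Dox-. The median log2 difference was -0.046, with 25 of 42 genes lower in Dox+ (59.5%), beside 0.0045 and 49.5% over the 9541 such genes of the whole set.

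The strength of the strongest peak could hardly separate the conditions in replicate lists. A list without a peak counted as 0, the Dox+ replicate 1 list had no peak at 47 of 49 genes and the Dox- replicate 1 list had none at 38, so a gene could not be called higher in Dox+ at those 47 or lower in Dox+ at those 38. With all lists, the 3 Dox+ values lay above the 3 Dox- values at 0 of 49 genes (background 0.342%) and below them at 0 (background 0.588%). An exact two-sided permutation test of 3 against 3 lists cannot give a p below 0.1, so 0 genes could pass at an unadjusted 0.05. The lowest p among these genes was 0.3 (exact permutation, n = 3 per group), at Tln1. Without replicate 1 of Dox+, 10 genes were higher (20.4%, background 14.1%) and 0 lower (background 0.647%). Without replicate 1 of Dox-, 0 were higher (background 0.451%) and 4 lower (8.16%, background 3.39%). Without both, a setting chosen after seeing the data, 11 were higher (22.4%, background 15.2%) and 4 lower (8.16%, background 3.49%).

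The clearest difference at these genes came from sites that the authors listed as changed between Dox+ and Dox- SMAD3. Among them, 14 of the 49 genes had a site of lower SMAD3 in Dox+ (28.6%), against 3.85% of all protein-coding genes, and genes of the same span classes would give 2.24. A site of higher SMAD3 was present at 5 of 49 (10.2%), against 6.64%, with 3.51 from the span classes. The same counts were read within the regions that could have been listed. In the set of tested regions, rebuilt by joining the replicate lists and keeping regions in at least 2 lists, a region lay at 46 of 49 genes (93.9%, background 54.5%). Among genes with a tested region, 14 of 46 (30.4%) had a lower site against 7.06%, and 5 of 46 (10.9%) a higher site against 12.2%. Of the 115 tested regions at these genes, 16 (13.9%) were listed as lower, against 6.84% of all 13218 regions, and 5 (4.35%) as higher, against 8.9%. These are counts beside the background, with no test.

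**Figure D3:**
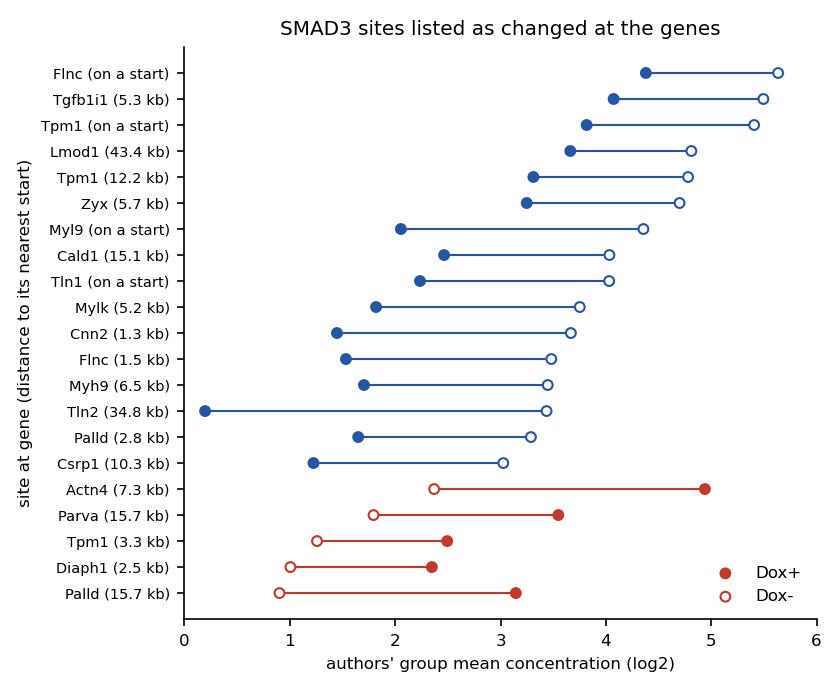
Authors' log2 group mean concentration of SMAD3 reads (horizontal axis) at each of the 21 listed sites, in Dox+ (filled) and Dox- (open), with sites lower in Dox+ in blue and higher in red; labels give the gene and the distance to its nearest annotated start. The 16 blue sites ran from 3.03 to 5.63 in Dox- and from 0.20 to 4.38 in Dox+, and the 5 red sites from 0.90 to 2.37 in Dox- and from 2.35 to 4.94 in Dox+.

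Lower sites were found in the myosin group at 3 of 4 genes. In the transgelin, calponin and caldesmon group they were at 3 of 7, Lmod1 among them. They were at 1 of 4 tropomyosins, 3 of 8 cross-linkers and LIM proteins and 4 of 10 adhesion adaptors. None of the 5 genes of the actin group had one. At Myl9, the regulatory light chain of myosin, the site lay on the gene start (chr2:156774876-156775546), with an authors' mean log2 concentration of 4.36 in Dox- and 2.05 in Dox+. Peaks there were called in replicate 2 of each condition (fold 2.06 in Dox- and 1.61 in Dox+) and in the merged Dox- list (2.89), but not in the merged Dox+ list. Mylk, the kinase that phosphorylates this light chain, had an intronic site at chr16:34935572-34936297, at 3.75 in Dox- and 1.82 in Dox+. At Myh9, the heavy chain of non-muscle myosin IIA, the site was upstream (chr15:77848641-77849201, 6466 bp from the nearest start), at 3.45 and 1.70. Myh10 had no listed site.

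Tpm1, a tropomyosin, had 2 lower sites and 1 higher site. The lower site on its upstream starts (chr9:67048498-67050204) was at 5.41 in Dox- and 3.82 in Dox+. It was among the best covered, with a peak in all 3 Dox- lists (fold 2.36, 2.21 and 2.37) and in Dox+ replicates 2 and 3 (1.74 and 2.41), and the Dox- values lay inside the Dox+ range once lists without a peak were left out. The second lower site lay past the 3′ end (chr9:67017876-67020582), at 4.78 and 3.31. The higher site was intronic (chr9:67039994-67040425), at 2.49 in Dox+ and 1.26 in Dox-, with peaks in Dox+ replicates 2 and 3 (fold 2.25 and 2.99) and in no Dox- list. Cnn2, a calponin, had an intronic lower site (chr10:79989897-79990365, 3.67 in Dox- and 1.45 in Dox+) with peaks in Dox- replicates 2 and 3 and in no Dox+ list. At Lmod1 the lower site (chr1:135368238-135369658, 4.81 and 3.66) lay just past the 3′ end, 43431 bp from the gene's nearest start and closer to Shisa4. At Cald1, caldesmon, it lay on a start of the neighbor Agbl3 (chr6:34780090-34780956, 4.03 and 2.46). Both sites were thus nearer to the start of another gene.

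Filament cross-linkers and LIM proteins contributed Flnc, Palld, Csrp1 and Actn4. Flnc, the muscle filamin, had 2 lower sites, and the one on its start (chr6:29433023-29436774) had the highest concentrations among the lower sites, 5.63 in Dox- and 4.38 in Dox+. Its neighbor 1528 bp upstream of the start was at 3.48 and 1.53. Palld, palladin, had a lower site at chr8:61757058-61757317 (3.29 and 1.65) and a higher site at chr8:61574616-61575434 (0.90 in Dox- and 3.15 in Dox+), both intronic. The higher site had peaks in Dox+ replicates 2 and 3 (fold 3.67 and 2.48) and in no Dox- list. Csrp1 had an intronic lower site (chr1:135739434-135739817, 3.03 and 1.22) with peaks in Dox- replicates 2 and 3 only. The higher site at Actn4 (chr7:28969626-28972242) was the strongest of its kind, at 4.94 in Dox+ and 2.37 in Dox-, although it lay upstream of the gene, 2594 bp from the start of Eif3k and 7286 bp from that of Actn4.

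Among focal adhesion adaptors, 4 of 10 genes had a lower site and 1 a higher site. Zyx, encoding zyxin, had the lower site at chr6:42360790-42362879, past its 3′ end and over a coding exon of the neighbor Epha1 (4.70 in Dox- and 3.25 in Dox+), and Tgfb1i1, the paxillin relative Hic-5, at chr7:128254170-128257118, over its 3′ end (5.49 and 4.07). The peak folds at these sites did not all follow the concentrations. Zyx gave 5.35 and 2.54 in Dox+ replicates 2 and 3 and 3.95 in Dox- replicate 2, and Tgfb1i1 gave 4.16 and 3.14 against 2.16 and 2.16 in Dox- replicates 1 and 2. In the merged lists neither site had a Dox+ peak, and the Dox- fold was 3.25 at Zyx and 2.17 at Tgfb1i1. Other lower sites also had the higher replicate 2 fold in Dox+. They were at Mylk (4.07 in Dox+ and 3.28 in Dox-), Cald1 (2.92 and 1.95) and Palld (2.15 and 2.14). Both Flnc sites did so too (3.04 and 2.76 upstream, 2.31 and 2.10 on the start). Replicate 2 went the other way at the lower sites of Myl9, Myh9, Lmod1, Tln1 and Tpm1 (both sites). The fold of a broad peak is averaged over whatever width was called in that list, while the concentration counts reads over 1 fixed interval, and which of the measures ranks these sites better was not tested. Tln1, a talin, had a lower site on an internal annotated start (chr4:43558262-43558954, 4.03 and 2.24), and Tln2 an intronic site (chr9:67463564-67464039) at 3.44 in Dox- and 0.20 in Dox+, the widest gap of the 21. That gap rests on the lowest Dox+ value among the 21, near the bottom of the scale. The merged Dox- peak at this Tln2 site had a fold of 2.16 and a -log10 q-value of 0.90. Parva, a parvin bound to integrin-linked kinase, had an intronic higher site (chr7:112535432-112535981, 3.55 in Dox+ and 1.80 in Dox-). The formin gene Diaph1 had the remaining higher site, intronic, at 2.35 in Dox+ and 1.01 in Dox-. None of the 6 integrins had a listed change.

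The support of the 16 lower sites in replicate lists was uneven. All 16 had a peak in Dox- replicate 2, 8 in replicate 3 and 3 in replicate 1, and 13 also had a peak in Dox+ replicate 2 and 5 in Dox+ replicate 3. In all, 3 sites had no Dox+ peak (Cnn2, Csrp1 and Tln2). The 5 higher sites had peaks in Dox+ replicate 2 at all 5 and in Dox+ replicate 3 at 4, and 1, at Parva, had a peak in Dox- replicate 2. A start of some gene lay within 1 kb of 5 of the 16 lower sites (31.3%), beside 40.6% of all 904 lower sites, and of 0 of the 5 higher sites, beside 41.3% of all 1176. The median concentrations of the 16 lower sites, 4.03 in Dox- and 2.15 in Dox+, were like those of all lower sites, 4.02 and 2.16.

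The CArG box of SRF was common in SMAD3 peaks at these genes. The motif (CC and GG around a run of A and T, no mismatch, either strand) was found in 14 of 93 merged Dox+ peaks at these genes (15.1%), beside 2.56% of all merged Dox+ peaks, and in 18 of 98 merged Dox- peaks (18.4%), beside 2.61% of all. Peaks at these genes were wider in Dox+ (median 680 bp, 486 bp over all peaks) and not in Dox- (484 bp, 501 bp over all). Of the 16 sites lower in Dox+, 5 held a CArG box (31.3%, beside 5.09% of all lower sites), and of the 5 higher sites 0 did (beside 5.61%). These counts are over whole sites, of 796.5 bp in the median for the 16 lower sites and up to 3752 bp, and within 200 bp at the site center 0 of the 16 held a box (beside 0.885% of all lower sites). Within 200 bp at the peak center the box was present in 9 of 98 Dox- peaks (9.18%, beside 0.764% of all) and in 2 of 93 Dox+ peaks (2.15%, beside 0.811%). The list includes textbook SRF targets, so it was not chosen independently of this motif.

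**Figure D4:**
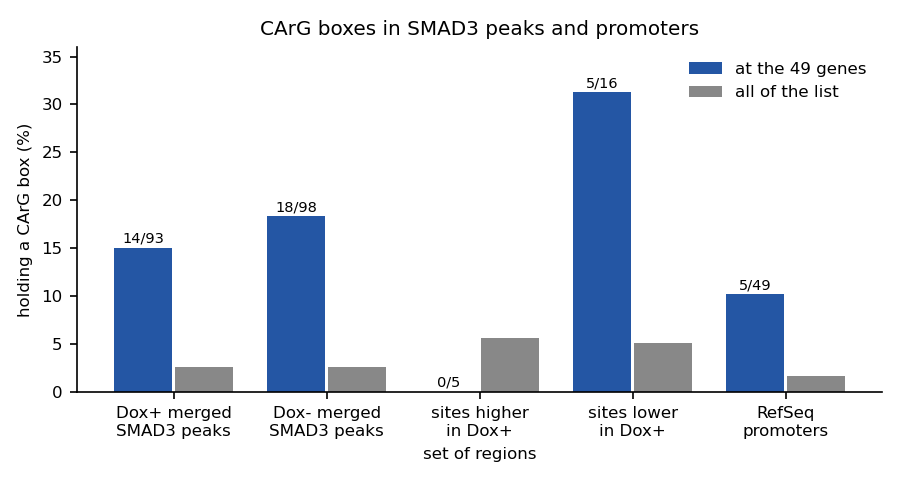
Percent of regions holding a CArG box (vertical axis) among merged SMAD3 peaks, listed sites and RefSeq promoters, at the 49 genes (blue, with counts) and over the whole list (grey). The share at the 49 genes was higher than in the whole list for peaks of both conditions (15.1% and 18.4%), for sites lower in Dox+ (31.3%) and for promoters (10.2%), and was 0 of 5 for sites higher in Dox+.

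Sequence around the CArG boxes in the 5 lower sites that hold one is given below, to show the boxes in their context (GRCm38.p6, plus strand, 30 bases on each side of the box center, box in capitals). The windows are chr2:156775278-156775338 (Myl9), chr16:34935636-34935696 (Mylk), chr4:43558720-43558780 (Tln1), chr6:29434330-29434390 (Flnc), and chr9:67018729-67018789 and chr9:67018879-67018939 (both Tpm1, past the 3′ end).
Myl9: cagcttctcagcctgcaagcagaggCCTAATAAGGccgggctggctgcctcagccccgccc
Mylk: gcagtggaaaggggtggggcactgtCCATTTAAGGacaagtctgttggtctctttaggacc
Tln1: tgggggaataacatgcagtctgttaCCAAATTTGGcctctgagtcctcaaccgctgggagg
Flnc: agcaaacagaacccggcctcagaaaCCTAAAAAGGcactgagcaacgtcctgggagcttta
Tpm1, first box: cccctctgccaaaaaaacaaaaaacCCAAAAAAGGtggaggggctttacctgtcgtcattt
Tpm1, second box: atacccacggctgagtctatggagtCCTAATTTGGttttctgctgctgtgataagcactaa

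In RefSeq promoters (GRCm38.p6, 250 bases before to 50 after the start), 39 of the 49 genes had an entry, with 49 promoters. A CArG box was in 5 of the 49 (10.2%), those of Myl9, Cnn2, Actg1, Vcl and Srf, beside 1.63% of all 32851 promoters. The TEAD motif GGAATG was in 15 (30.6%, beside 14.7% of all), the KLF-like motif GGGNGTGG in 13 (26.5%, beside 17.6%), and the SMAD half-site CAGAC in 24 (49%, beside 49.6%). The octamer ATGCAAAT was in 2 (4.08%, beside 1.74%), and the AP-1 motif TGANTCA in 5 (10.2%, beside 7.81%). Promoters of Actg1, Vcl and Srf carried merged SMAD3 peaks on the start in both conditions, that of Myl9 only in Dox-, and that of Cnn2 in neither. Their bases before the first annotated transcribed base are shown with the box in capitals, from 5′ to 3′ on the gene's strand, at chr2:156775214-156775419 (Myl9, plus), chr11:120348543-120348745 (Actg1, minus), chr14:20929148-20929397 (Vcl, plus) and chr17:46556176-46556412 (Srf, minus).
Myl9: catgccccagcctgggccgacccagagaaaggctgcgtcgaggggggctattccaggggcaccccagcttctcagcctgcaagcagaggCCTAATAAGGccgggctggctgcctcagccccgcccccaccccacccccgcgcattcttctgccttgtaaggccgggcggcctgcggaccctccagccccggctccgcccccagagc
Actg1: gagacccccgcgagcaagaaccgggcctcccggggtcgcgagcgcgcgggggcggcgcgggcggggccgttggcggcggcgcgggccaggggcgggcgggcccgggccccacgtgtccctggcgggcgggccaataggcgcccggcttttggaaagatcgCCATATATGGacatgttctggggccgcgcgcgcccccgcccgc
Vcl: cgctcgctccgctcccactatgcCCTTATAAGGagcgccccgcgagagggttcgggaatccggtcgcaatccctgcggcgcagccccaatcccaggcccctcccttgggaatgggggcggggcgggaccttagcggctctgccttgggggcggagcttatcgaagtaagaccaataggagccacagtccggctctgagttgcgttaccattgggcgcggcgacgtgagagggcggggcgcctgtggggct
Srf: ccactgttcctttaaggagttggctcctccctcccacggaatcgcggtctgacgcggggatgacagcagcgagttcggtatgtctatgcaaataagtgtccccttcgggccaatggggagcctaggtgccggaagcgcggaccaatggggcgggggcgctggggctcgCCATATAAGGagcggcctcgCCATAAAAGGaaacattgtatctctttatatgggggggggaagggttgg
Srf showed 2 boxes, starting 82 and 62 bases before the RefSeq start, and the gene is known to be under SRF control itself. In Myl9 the box starts 161 bases before the start and lies inside the lower site.

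The other motifs were counted in the same way in SMAD3 peaks. Within 200 bp at the peak center, CAGAC was in 37.6% of merged Dox+ peaks at these genes (34.8% of all) and in 36.7% of merged Dox- peaks (36% of all). TGANTCA was in 8.60% (5.62% of all) and 8.16% (7.47% of all), and GGAATG in 14.0% (8.91% of all) and 11.2% (10.3% of all). At the 16 lower sites CAGAC was in 2 windows (12.5%), beside 38.8% of all lower sites, and GGAATG in 4 (25%), beside 15.8%.

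OCT4 regions were found at a few of these genes, at a share not below the background. The merged OCT4 list, of 2022 regions, had a region at 4 of 49 (8.16%), against 4.85% of all protein-coding genes, with 3.84 from the span classes. They were the integrin beta chains Itgb3 and Itgb5, the adhesion adaptor Vcl (vinculin) and Palld. Only the Itgb3 region (chr11:104600763-104601004, 6996 bp from the nearest start and between genes) was called in single replicates, with a fold of 6.91 in replicate 1 and 6.67 in replicate 2, 6.89 in the merged list, and no call in replicate 3, which had 102 regions. The regions at Itgb5 (chr16:33844392-33844590), Vcl (chr14:20964354-20964520) and Palld (chr8:61671311-61671535) were intronic, at a merged fold of 5.64, 4.68 and 4.46. The median fold was 6.15 over the 2083 OCT4 loci of the pooled coverage. No listed SMAD3 change at these genes overlapped an OCT4 region, neither the 5 higher sites (beside 12.8% of all higher sites) nor the 16 lower sites (beside 0 of all 904).

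In the pooled coverage at OCT4 regions, SMAD3 signal was higher with dox at all 4. The mean signal over input in the central 200 bp was 5.11 in Dox+ and -3.54 in Dox- at Itgb3, 7.55 and 1.31 at Itgb5, 5.74 and 3.33 at Vcl, and 7.16 and 3.67 at Palld. The OCT4 signal there was 30.7, 23.2, 22.5 and 23.4. Medians over all 2083 OCT4 loci were 21.6 (OCT4), 7.24 (SMAD3 in Dox+) and 0.028 (SMAD3 in Dox-). The 4 SMAD3 values in Dox+ lay between the quartiles of all loci (4.44 and 10.8). In Dox-, Itgb5 lay between the quartiles (-1.49 and 1.57), Vcl and Palld above the upper and Itgb3 below the lower. Replicates were pooled in these tracks, so the values have no error. A called SMAD3 peak overlapped the OCT4 region at Itgb5 only, in Dox+ replicate 2 (fold 2.32) and the merged Dox+ list (1.89).

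**Figure D5:**
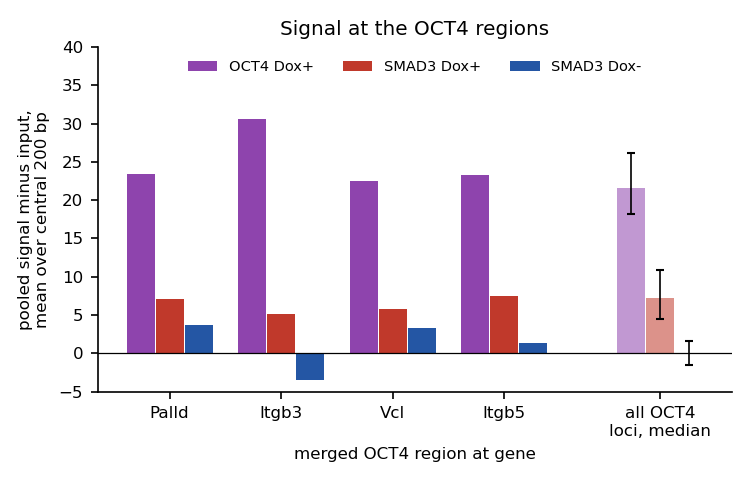
Pooled signal minus input, mean over the central 200 bp (vertical axis), for OCT4 and SMAD3 at the 4 OCT4 regions near these genes, with the median over all OCT4 loci at right (lines mark the quartiles). SMAD3 was higher in Dox+ than in Dox- at each of the 4 regions, as in the medians of all loci (7.24 and 0.028).

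The sequence around each merged OCT4 summit at these genes was taken with 60 bases on each side (GRCm38.p6, plus strand). Whether these bases carry the OCT4 binding was not tested. The octamer ATGCAAAT had no exact match in the 200 bp around any of the 4 summits (6.58% of all OCT4 regions had one). With 1 mismatch allowed, a search chosen after seeing the data, it was found in the window below at Itgb5 (capitals) and not at the others, beside 42.1% of all regions. The windows are chr11:104600827-104600947 (Itgb3), chr16:33844459-33844579 (Itgb5), chr14:20964416-20964536 (Vcl) and chr8:61671329-61671449 (Palld).
Itgb3: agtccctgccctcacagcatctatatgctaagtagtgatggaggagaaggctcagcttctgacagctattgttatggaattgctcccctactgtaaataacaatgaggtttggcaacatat
Itgb5: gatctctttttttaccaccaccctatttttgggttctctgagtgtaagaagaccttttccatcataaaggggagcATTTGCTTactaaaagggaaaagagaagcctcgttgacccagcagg
Vcl: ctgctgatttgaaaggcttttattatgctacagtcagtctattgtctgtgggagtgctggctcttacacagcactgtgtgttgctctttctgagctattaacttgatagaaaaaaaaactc
Palld: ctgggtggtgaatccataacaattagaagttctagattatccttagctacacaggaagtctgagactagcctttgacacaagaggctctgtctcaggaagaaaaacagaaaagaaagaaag

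OCT4 and SMAD3 were also set against each other in Dox+ by the authors. The concentrations come from ChIPs of different proteins, so a higher one is not a larger amount of protein. A site with the higher concentration for OCT4 was listed at 3 of the 49 genes (6.12%, background 4.17%), with 3.01 from the span classes. It was the OCT4 region at Itgb3 (authors' mean log2 concentration 4.84 for OCT4 and 0.078 for SMAD3), the start of Mkl1 (4.69 and 2.74) and, at Pdlim7, the start of the neighbor Dbn1 (4.66 and 3.24). Neither the Mkl1 nor the Pdlim7 site had a merged OCT4 peak. A site with the higher concentration for SMAD3 was listed at 9 genes (18.4%, background 5.15%), with 2.47 from the span classes. It was on the gene's own start at Csrp1, Zyx, Ilk, Tpm4, Tpm1, Pdlim7 and Lpp. Merged Dox+ SMAD3 peaks were themselves more frequent at the 49 genes (89.8%, background 52.5%). The share among genes with a SMAD3 peak was not computed. The largest gap was at the start of Pdlim7, an actin-binding PDZ and LIM protein (4.26 for SMAD3 and 1.48 for OCT4).

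A second list of 91 further actin and adhesion genes showed fewer lower sites than the 49 genes, though at a share above that of all protein-coding genes. Their median span was 51205 bp, against 31173 bp for the 49 and 17425 bp for all protein-coding genes. No share from span classes was computed for the 91. Merged SMAD3 peaks were at 67 of 91 in Dox+ (73.6%, background 52.5%) and 66 of 91 in Dox- (72.5%, background 48.0%), and merged OCT4 regions at 9 (9.89%, background 4.85%). A lower site was at 7 of 91 (7.69%, background 3.85%) and a higher site at 13 (14.3%, background 6.64%), whereas the 49 genes had 14 and 5. Among genes with a tested region the shares were closer to the background. A lower site was at 7 of 74 (9.46%, beside 7.06%) and a higher site at 13 of 74 (17.6%, beside 12.2%). The lower sites included the starts of Src, the adhesion kinase (5.01 in Dox- and 3.12 in Dox+), and Itgb8 (3.86 and 2.50). The higher sites included those on starts of Itga6 and Itgb4, the pair of chains of the hemidesmosome integrin, at 2.01 in Dox- and 4.54 in Dox+ and at 2.40 and 4.59, and of Ezr (3.62 and 4.96). Sites in both directions were at 4 of the 91 genes, Gsn, Fhl3, Plec and Actn3. At Plec the lower site was on a start (4.15 in Dox- and 2.59 in Dox+) and the higher site was not (2.19 and 3.65). The difference between the lists was not tested.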

How the data were processed

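Peak lists of 9 ChIP libraries (OCT4 Dox+, SMAD3 Dox+ and SMAD3 Dox-, n = 3 each) were analysed, and 4 inputs served the authors as controls. The authors trimmed reads (Trimmomatic 0.36), aligned them to mm10 with Bowtie2 (2.28 in the submitters' processing notes), removed duplicates, low mapping quality and blacklisted reads, and called peaks with MACS2 2.1.0 against pooled inputs, narrow for OCT4 and broad for SMAD3, for each replicate and for pooled replicates. The deposited lists give the fold enrichment over input (a ratio) and the −log10 q-value that the authors' caller assigned. In the tables the authors made with DiffBind 1.16.3, the log2 concentration is the mean normalised read count of a group on a log2 scale. These tables also hold fold changes and p-values, which were not used. The coverage score was made by the authors with deepTools 2.2.3 as pooled ChIP minus pooled input, each scaled to 1x genome coverage.

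Peaks and listed sites overlapping a gene window by at least 1 bp were counted (Python 3.11.15, pandas 2.3.3). OCT4 entries with several summits were joined to 1 region. Peak strength was the log2 fold of the strongest peak of a list in the window, 0 where none was called. At the 49 genes it was compared by an exact two-sided permutation test of 3 against 3 lists. Lack of overlap between the groups was counted over all protein-coding genes. The share of a list was computed with a pseudocount of 0.5 peaks before taking log2. Overlap counting was tested on simulated intervals. The genes and gene lists were chosen with earlier results of these data known. The text names every gene with an OCT4 region or a listed site, the 5 strongest per condition, Acta2, Tagln, Cnn1, Srf and Mkl1, any gene with no peak, and further genes as examples, chosen after their values were seen. Alternatives changed the window, the overlap rule, peak thresholds, list length, pseudocount, strength measure, replicates left out and the replicate block, and the closing section gives their effect. Gapped peak files were not used. MAPQ and other read-level settings could not be varied here, since the reads were not used.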

Additional observations from a re-analysis of the deposited data

How the results depend on the processing

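Of 87 recomputed values, 65 stayed close to the reported one (within 1.5 times for a count, within the 0.22 SD between lists for the log2 ratio), and 22 moved. Some of the 65 could not move, so the tally overstates stability. Leaving out a replicate of either condition cannot change the count in at least 2 lists of the other condition. The replicate block cannot change the ratio. Counts of genes higher in Dox+ could hardly rise while the nearly empty Dox+ replicate 1 list was kept. The count of genes with a lower site was among those that stayed close, at 10 with the gene span alone, 14 by site center and 16 with 50 kb on each side. With 50 kb on each side 8 genes had a higher site, and the log2 ratio of list shares was -0.045. No share of all genes was computed for these windows or by site center, so whether the excess over the background held there was not tested. With SMAD3 peaks at a −log10 q-value of at least 2, merged peaks were at 25 genes in Dox+ (beside 27.1% of all genes) and 22 in Dox- (beside 21.1%), at least 2 lists had a peak at 8 and 2 genes, and the ratio was 0.38. With merged peaks kept only where at least 2 replicate lists overlapped them, 28 genes had a Dox- peak (beside 23.7% of all genes) and 1 an OCT4 region. With all lists cut to the 420 peaks of lowest q-value, 0 genes were in at least 2 lists in either condition and the ratio was 0.084. Cut lists hold few peaks by construction. For the rest the cause was not tested. Where no share of all genes stands beside a count in this paragraph, none was computed.

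Without each replicate in turn, genes in at least 2 lists ranged from 2 to 43 in Dox+ and from 10 to 30 in Dox-, genes without overlap in strength from 0 to 10 (higher in Dox+) and from 0 to 4 (lower), and the ratio from -0.37 to -0.14. The share of all genes in at least 2 lists was not computed with a replicate left out. Without replicate 1 of both groups, a setting chosen after seeing the data, 11 of 49 genes were higher (beside 15.2% of all genes) and 4 lower (beside 3.49%). With the replicate block the ratio was -0.29, unchanged by construction, and 0 genes moved the same way in all 3 pairs, in either direction. Same-numbered lists deviated together in replicates 1 and 2 (r = 0.42 and 0.35 across genes, which are not independent) but not in replicate 3 (r = -0.044). The largest correlation between lists of unlike number was 0.19, and 4 of 6 lists were most correlated with the list of their own number. Whether the numbers pair the samples, as by a shared batch, was not settled, and the main comparison was left unpaired. Read depth is unknown, and list length limits every count by list.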
